A study of Mus musculus with 8 samples.

Results

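The genes described here are 10 components of the oxygen-sensing pathway and its vessel growth output in soleus (SOL) muscle, a hindlimb muscle rich in slow oxidative fibers. They were taken by gene symbol from the 24054 genes of the deposited expression table, and all 10 had a value there. Hif1a, Epas1 and Arnt encode subunits of the hypoxia-inducible factors (HIF), Egln1, Egln2, Egln3 and Hif1an encode oxygen-dependent hydroxylases, Vhl encodes the substrate receptor of a ubiquitin ligase, and Vegfa and Vegfb encode secreted vascular growth factors. RNA was sequenced from SOL of 4 MI4KO mice and 4 flox mice, 1 library per mouse. MI4KO mice carried floxed alleles of Irf4, an interferon regulatory factor, together with Myl1-Cre, in which the recombinase is made from the gene of a fast muscle myosin light chain. The flox mice were Irf4 flox/flox controls without the recombinase. Mice of both groups were male, of the C57BL/6 strain, and had "High fat diet" in the food field of their labels, and the age of the sequenced mice was not given in the sources used here. Because Myl1-Cre acts in muscle fibers, vessel cells, blood cells and other cells of the muscle keep Irf4, and every value is a sum over all of these cells. A lower value in such whole-muscle RNA cannot tell fewer cells of a type from less RNA per cell.

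In well-oxygenated cells the EGLN enzymes hydroxylate prolines of the HIF alpha subunits, VHL then binds the hydroxylated protein, and the alpha subunit is degraded. Hif1an hydroxylates an asparagine instead, which keeps the coactivators Ep300 and Crebbp away. When oxygen falls, the alpha subunit persists, pairs with ARNT and drives genes such as Vegfa, Egln3 and those of glycolysis, so much of the control lies in protein stability, which RNA levels do not show. In skeletal muscle, Vegfa maintains the capillaries around fibers and also responds to exercise through Ppargc1a, and Epas1 is abundant in endothelial cells as well as in fibers.

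Recovered totals were 13916450 to 16137925 reads per flox mouse and 13417512 to 16384565 reads per MI4KO mouse, and 3 reads on a gene, taken as the smallest detectable amount, corresponded to values of 0.181 to 0.225. Values are CPM, reads on a gene relative to the size of the library, after TMM scaling, which sets a common scale on the premise that most genes keep their level. All 10 genes of a muscle fiber list were above 0 in every mouse, and their summed value was between 91256 and 110524. That list holds Myh2, Acta1 and Ckm, which are not limited to slow fibers, so the sum is not a measure of slow fibers alone. A pair of libraries stood apart. All 12 liver genes on a marker list were highest in flox mouse 1, where their sum was 150.1 against at most 3.19 in any other mouse, and all 10 genes of a glucocorticoid and stress response list were highest in MI4KO mouse 3, where their sum was 1247 against 403 to 573. Irf4, the targeted gene, was at 0.686, 1.46, 1.58 and 1.68 in flox mice 1 to 4 and at 0.725, 0.840, 0.266 and 1.03 in MI4KO mice 1 to 4. Flox mouse 1 thus lay inside the MI4KO range, and between 4 and 23 reads stood behind each of these values. By limma, Irf4 had a log2 fold change of -0.45 with a standard error of 0.20 (unadjusted p = 0.040, adjusted p = 1.0 by the Benjamini-Hochberg method). Its unadjusted p was above 0.05 with the range of the mouse numbers as a covariate (0.071), with another scaling (0.051), with edgeR (0.056), with DESeq2 (0.058), without MI4KO mouse 1 (0.059) and without MI4KO mouse 3 (0.119). By limma it was under 0.05 without a filter on low values (0.032), with 0.5 added to each value instead of 1 (0.042) and without MI4KO mouse 2 (0.046). It was also under 0.05 without flox mouse 1 (0.0078, log2 fold change -0.60) and without both libraries that stood apart (0.016). The log2 fold change was -0.86 with edgeR and -0.87 with DESeq2, neither of which adds 1 to each value as was done for limma.

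Of the 10 oxygen-sensing and VEGF genes, 0 differed between MI4KO and flox SOL at an unadjusted p under 0.05 by limma on log2(value + 1), and 0 had values that did not overlap between the groups. Over all 11865 genes tested, 399 (3.36%) had an unadjusted p under 0.05, 246 (2.07%) had groups that did not overlap, and 0 (0%) had an adjusted p under 0.05. On the recovered reads, edgeR gave 0 genes with an adjusted p under 0.05 and 363 with an unadjusted one, DESeq2 gave 0 and 248, and neither put any of the 10 genes under 0.05 without adjustment. Among the 10 genes, 4 had a log2 fold change above 0 and 6 below 0, with a median of -0.01 against -0.01 over all genes tested. The lowest unadjusted p among the 10 was 0.341, for Epas1, and every adjusted p was 1.0 by limma. Taken one gene at a time, the exact two-sided permutation test over the mice gave p between 0.343 and 1.0, where the smallest p that 4 mice against 4 allow is 0.0286. The 95% intervals of the fold changes reached down to 0.764, for Vhl, and up to 1.39, for Egln3. The interval of each single gene was narrower than this span, such as 0.887 to 1.10 for Hif1an. Differences larger than a gene's own interval lay outside it, and differences inside it were not excluded with 4 mice per group. With 1 added to each value, low genes such as Vhl show smaller fold changes than their CPM would give.

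**Figure D1:**
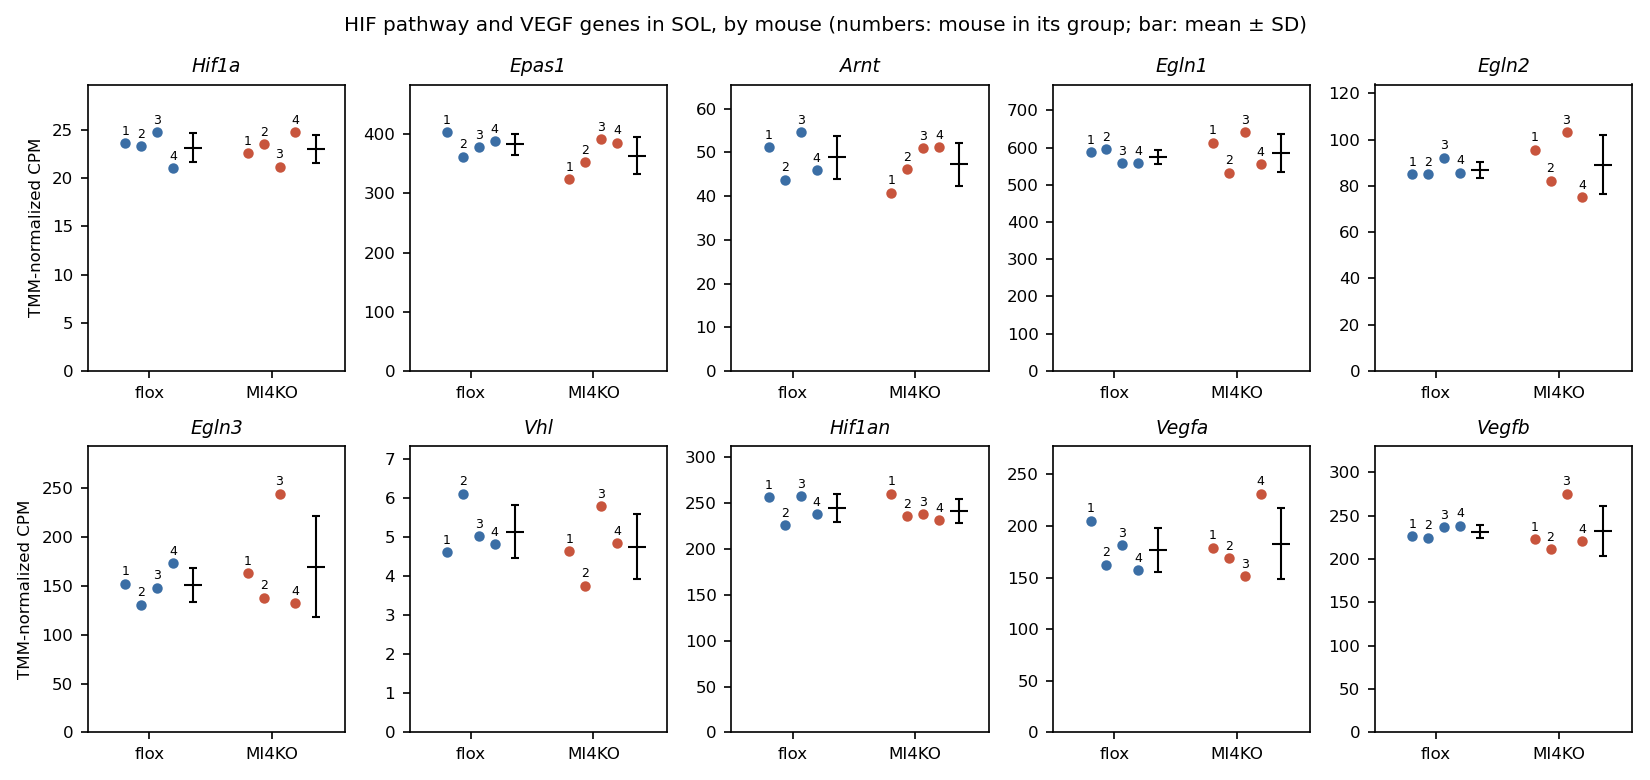
TMM-normalized CPM of the 10 genes (vertical axes, each starting at 0) in the 4 flox mice (blue) and the 4 MI4KO mice (red), with the mouse number at each point and bars for the mean ± SD of the group. The groups overlap for all 10 genes, and MI4KO mouse 3 stands above the other mice for Egln3, at 244.

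For the HIF subunits no difference between the groups was detectable. Hif1a, the broadly expressed oxygen-labile alpha subunit, was at 23.6, 23.3, 24.8 and 21.1 in flox mice 1 to 4 and at 22.6, 23.5, 21.2 and 24.8 in MI4KO mice 1 to 4. The 2 ranges nearly coincided, and the log2 fold change was -0.01 (standard error 0.08, 95% interval -0.19 to 0.17). Epas1, the alpha subunit that is prominent in endothelium, was at 404, 362, 378 and 388 in flox mice and at 324, 353, 392 and 386 in MI4KO mice. MI4KO mice 1 and 2 were below all flox mice, MI4KO mice 3 and 4 were within the flox range, and the log2 fold change was -0.08 (standard error 0.08, 95% interval -0.24 to 0.09). Arnt, the constitutive partner of both alpha subunits, was at 51.2, 43.8, 54.6 and 46.0 in flox mice and at 40.8, 46.1, 50.9 and 51.2 in MI4KO mice, with MI4KO mouse 1 below the flox range and the other MI4KO mice inside it. The log2 fold change was -0.05 (standard error 0.10, 95% interval -0.26 to 0.16).

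The prolyl hydroxylases did not separate the groups beyond the spread of the mice, and Egln3 had the largest residual SD of the 10 genes. Egln1, the main oxygen sensor for HIF in most tissues, was at 587, 596, 559 and 558 in flox mice and at 613, 533, 641 and 555 in MI4KO mice. MI4KO mice lay on both sides of the flox range, and the log2 fold change was 0.02 (standard error 0.08, 95% interval -0.14 to 0.19). Egln2, a hydroxylase with targets beyond HIF, was at 85.0, 85.0, 92.2 and 85.7 in flox mice and at 95.8, 82.2, 103 and 75.1 in MI4KO mice. The flox mice were close together and the MI4KO mice fell on both sides of them, with a log2 fold change of 0.02 (standard error 0.10, 95% interval -0.18 to 0.23). Egln3, whose gene is itself HIF-induced and thereby feeds back on the pathway, was at 152, 131, 148 and 173 in flox mice and at 163, 138, 244 and 132 in MI4KO mice. MI4KO mouse 3 was the highest of the 8 mice, and the other MI4KO mice were inside the flox range. The log2 fold change of Egln3 was 0.13 (standard error 0.16, 95% interval -0.22 to 0.48), and it was -0.06 without MI4KO mouse 3. The residual SD of Egln3 within groups, 0.31 on the log2 scale, was above that of 91.7% of the genes tested, while the median over the 10 genes was 0.14 against 0.15 over all genes.

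Vhl and Hif1an, which act on the HIF alpha protein after and beside the prolyl hydroxylases, had no detectable difference either. Vhl was at 4.61, 6.10, 5.03 and 4.81 in flox mice and at 4.64, 3.75, 5.78 and 4.83 in MI4KO mice, from 58 to 88 reads per mouse. The highest mouse was a flox mouse and the lowest a MI4KO mouse, with the rest intermixed, and the log2 fold change was -0.10 (standard error 0.13, 95% interval -0.39 to 0.19). Hif1an was at 257, 226, 258 and 238 in flox mice and at 260.3, 235, 238 and 232 in MI4KO mice. The ranges were nearly the same, and the fold change of -0.02 on the log2 scale (standard error 0.07, 95% interval -0.17 to 0.14) had the smallest standard error of the 10.

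The VEGF ligands were at similar means in the groups and differed from each other in which mouse was highest. Vegfa, the principal ligand for capillary growth, was at 205, 163, 182 and 158 in flox mice and at 179, 169, 151 and 231 in MI4KO mice. MI4KO mouse 4 was the highest and MI4KO mouse 3 the lowest of all 8, so the MI4KO range enclosed the flox range. The log2 fold change of Vegfa was 0.04 (standard error 0.12, 95% interval -0.23 to 0.30), and it was -0.08 without MI4KO mouse 4 and 0.12 without MI4KO mouse 3. Vegfb, a ligand of FLT1 that is abundant in oxidative muscle, was at 226, 224, 237 and 238 in flox mice and at 223, 211, 275 and 220.0 in MI4KO mice. MI4KO mouse 3 was above all other mice and the other MI4KO mice were below all flox mice, and the log2 fold change was -0.002 (standard error 0.08, 95% interval -0.19 to 0.18), or -0.09 without MI4KO mouse 3.

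**Figure D2:**
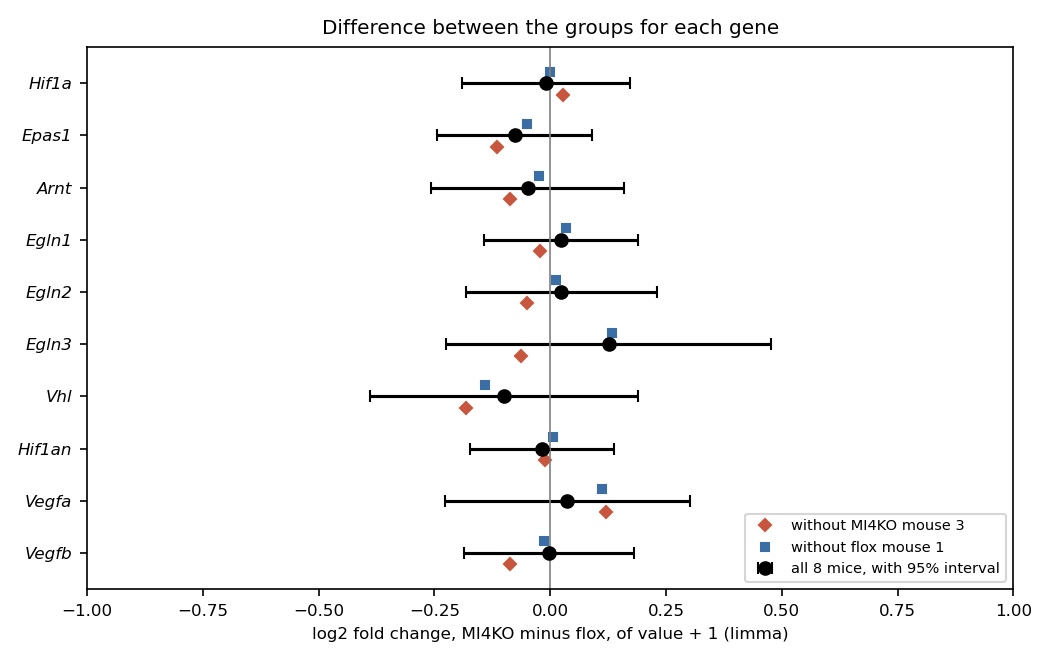
Log2 fold change of each gene (horizontal axis, MI4KO minus flox, of value + 1), with black points and 95% intervals for all 8 mice, red diamonds without MI4KO mouse 3 and blue squares without flox mouse 1. Every interval crosses 0, and Egln3 moves from 0.13 to -0.06 when MI4KO mouse 3 is left out.

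For every one of the 10 genes the residual SD between mice of a group exceeded the size of the group difference on the log2 scale. Of the 10 genes, 4 (Egln1, Egln2, Egln3 and Vegfb) were highest in MI4KO mouse 3, and 3 were highest there after scaling by median-of-ratios factors. The summed value over all genes was also highest in that mouse, at 1089208, and the share of all genes highest there was not determined. Counts of genes highest in that mouse, here and for the lists, are thus not shown to be particular to these genes. That mouse was also the lowest of the 8 in Vegfa. The 3 genes with their lowest value in MI4KO mouse 2 were Egln1, Vhl and Vegfb. In MI4KO mouse 3 the summed glucocorticoid and stress response genes were the highest of all mice, as given above, and the part of that response in the values of Egln3 and Vegfb was not tested. Of the 12 endothelial markers, 5 were highest in that mouse and 2 were lowest.

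**Figure D3:**
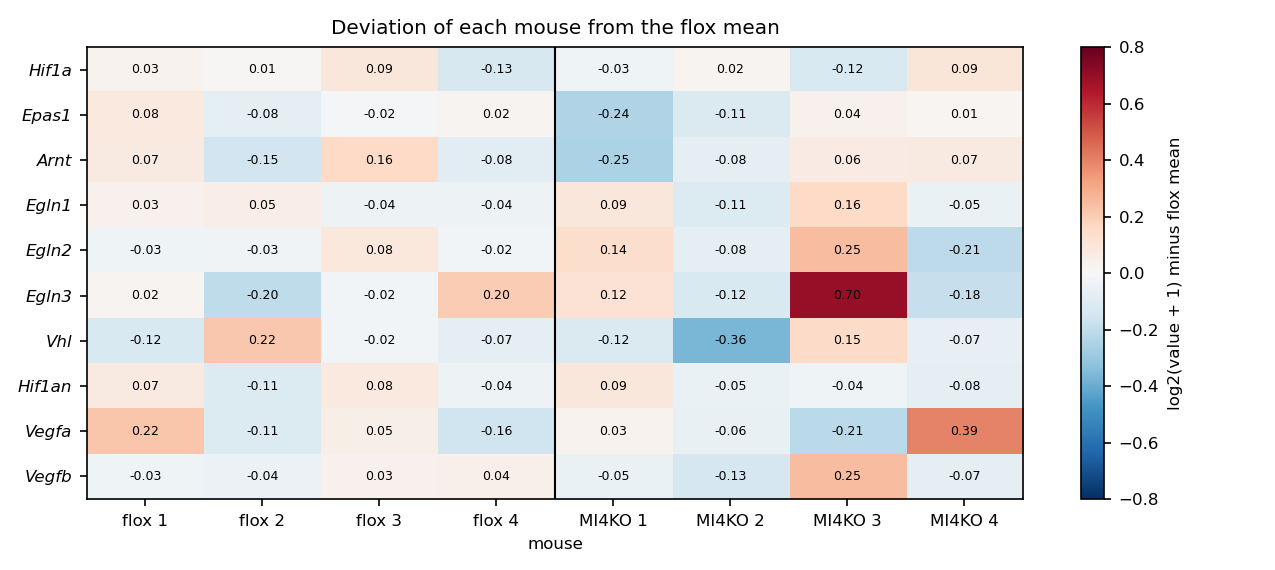
Deviation of each mouse (columns) from the flox mean of each gene (vertical axis) on the scale of log2(value + 1), with red above and blue below the flox mean. The largest deviation is 0.70, for Egln3 in MI4KO mouse 3, and Vegfa has 0.39 in MI4KO mouse 4.

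Ratios between partners were not separated by group either. On the log2 scale, Egln3 over Egln1 was at -1.95, -2.19, -1.92 and -1.69 in flox mice and at -1.91, -1.95, -1.39 and -2.07 in MI4KO mice. MI4KO mouse 3 again had the highest ratio of all mice. The group difference was 0.10 (exact two-sided permutation p = 0.6), and it was -0.04 without that mouse. The differences for Epas1 over Hif1a, Vegfa over Vegfb and Hif1a over Arnt were -0.07, 0.04 and 0.04 (exact permutation p = 0.543, 0.857 and 0.657), and the adjusted p over the 4 ratios was 0.857 for each.

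Per kilobase of transcript length, taken as the median over the annotated transcripts of each gene, the VEGF ligands and Egln1 had the highest levels and Arnt, Hif1a and Vhl the lowest. Over the 8 mice the mean level per kilobase was 206 ± 30.6 (SD, n = 8) for Vegfa and 200.2 ± 16.9 for Vegfb, and these neighbors did not differ beyond their spread (exact two-sided sign-flip p = 0.758). Egln1 followed at 161 ± 9.94, Epas1 at 128 ± 8.78 and Egln2 at 79.6 ± 7.90, each higher than the next in 8 of 8 mice (exact sign-flip p = 0.0078, the smallest that 8 mice allow, adjusted p = 0.010). Hif1an, at 68.8 ± 3.78, and Egln3, at 60.1 ± 13.9, did not differ beyond their spread (exact sign-flip p = 0.102). Arnt stood at 18.5 ± 1.78, Hif1a at 13.1 ± 0.806 and Vhl at 9.88 ± 1.46, again with each higher than the next in all 8 mice. Within the alpha subunits, Epas1 was therefore at the higher level per kilobase in SOL, and Hif1a at the lower. The order above the lowest 3 depended on the length used, and Vegfa was at 52.1 per kilobase, below Egln1, with the longest transcript. With the union of exons, Egln1 was above Vegfb in 8 of 8 mice (exact sign-flip p = 0.0078) and Hif1an was above Egln2 in 7 of 8 (exact sign-flip p = 0.016). Egln3 had a higher mean than Egln2 with the longest transcript, the union of exons and the median of protein-coding transcripts. Epas1 and Egln3 were then neighbors that did not differ beyond their spread (exact sign-flip p = 0.117 to 0.141). Arnt, Hif1a and Vhl were the lowest 3, in that order, under all 4 lengths tried.

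Across the 8 mice, 45 pairs of these genes were compared, 7 had an unadjusted p under 0.05 for Pearson's r, and 0 had an adjusted p under 0.05 (lowest adjusted p = 0.211, exact permutation). Egln3 and Vegfb had the highest r, 0.905 (exact permutation p = 0.010, adjusted p = 0.211), with a Spearman's rho of 0.690 (exact permutation p = 0.069, adjusted p = 0.470). For this pair r was 0.334 without the 2 mice farthest from the median of Egln3, 0.593 without MI4KO mouse 3 and 0.743 among the 4 flox mice. Leaving out the mice farthest from the median of a gene narrows its range, which by itself tends to lower r. The falls in r given here for these pairs thus cannot show that a relation rests on 2 mice. Hif1a and Egln3 had the lowest r, -0.773 (exact permutation p = 0.013, adjusted p = 0.211), with a rho of -0.667 (exact permutation p = 0.083, adjusted p = 0.470) and an r of -0.418 without the 2 mice farthest from the median of Hif1a. Egln2 and Egln3 had an r of 0.797 (exact permutation p = 0.017, adjusted p = 0.211) and a rho of 0.714 (exact permutation p = 0.058, adjusted p = 0.470), and r was 0.413 without the 2 mice farthest from the median of Egln2. Epas1 and Arnt had an r of 0.782 (exact permutation p = 0.019, adjusted p = 0.211) and a rho of 0.50 (exact permutation p = 0.216, adjusted p = 0.547), and r was 0.485 without the 2 mice farthest from the median of Epas1. Hif1a and Vegfa had an r of 0.749 (exact permutation p = 0.033, adjusted p = 0.248) and a rho of 0.881 (exact permutation p = 0.0072, adjusted p = 0.326), and r was 0.555 without the 2 mice farthest from the median of Hif1a. Egln1 and Egln2 had an r of 0.749 (exact permutation p = 0.032, adjusted p = 0.248). Their rho was 0.786 (exact permutation p = 0.028, adjusted p = 0.470). Their r was 0.525 without the 2 mice farthest from the median of Egln1. Egln2 and Vegfb had an r of 0.737 (exact permutation p = 0.039, adjusted p = 0.250). Their rho was 0.690 (exact permutation p = 0.069, adjusted p = 0.470). Their r was 0.345 without the 2 mice farthest from the median of Egln2.

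Genes elsewhere in the table whose values followed the same mice were found by Pearson's r on the log2 scale over the 8 mice, against 11864 other genes, and are given as a description. Among so many genes and with 8 mice, high values of r can arise by chance. Hif1a was most like Ago1, an Argonaute protein of small RNA silencing (r = 0.975), followed by Tlr4, the receptor for bacterial lipopolysaccharide, and Herpud2 (r = 0.930 for each). Among the genes most like Epas1 were Tm7sf2, an enzyme of sterol synthesis (r = 0.974), and Ptpru, a receptor phosphatase (r = 0.973). Ptpru was at 0.145 in MI4KO mouse 1, below the value of 3 reads in that library (0.218), so its r rests partly on values near the floor. Egln3 was most like Cebpb, a bZIP transcription factor (r = 0.988, and 0.952 without MI4KO mouse 3), Abhd16a and Apba3 (r = 0.976 for each). Cebpb was at 251 in MI4KO mouse 3 and at 103 to 147 elsewhere, so the same library was highest for both genes. Vegfa was most like Lphn1, an adhesion receptor (r = 0.939), Pip5k1a, a phosphoinositide kinase (r = 0.936), and Nox4, an oxidase that makes reactive oxygen species (r = 0.922), and Nox4 was highest in MI4KO mouse 4, at 1.99, as Vegfa was.

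In the GENCODE M21 annotation of GRCm38 all 10 are protein-coding genes, looked up by symbol since the deposited table gives no coordinates. Hif1a, at chr12:73901375-73947530 (plus strand), and Egln3, at chr12:54178981-54203860 (minus strand), share chromosome 12. Epas1, at chr17:86753700-86833410 (plus strand), and Vegfa, at chr17:46016993-46032369 (minus strand), share chromosome 17. Hif1an, at chr19:44562850-44576274 (plus strand), and Vegfb, at chr19:6982473-6987651 (minus strand), share chromosome 19. The others lie on separate chromosomes, Arnt at chr3:95434388-95497240 (plus strand), Egln1 at chr8:124908587-124949324 (minus strand), Egln2 at chr7:27158658-27166802 (minus strand) and Vhl at chr6:113623959-113631633 (plus strand).

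Promoter sequences from RefSeq, on build GRCm38.p6, were read for the 250 bases before the annotated start, and 9 of the 10 genes, all but Epas1, had at least 1 such window, 11 windows in all. The hypoxia response element core that HIF binds was searched as ACGTG or GCGTG on both strands, and 8 of the 11 windows, from 7 genes, held at least 1 match, against 38.6% of all 32851 mouse windows. An interferon-stimulated response element, the type of site that IRF proteins bind, was searched as a pair of GAAA runs with any 2 bases between them, on both strands, and was matched in 1 window of Vegfa and in the window of Vhl, against 2.98% of all windows. A match is a description of letters and not evidence of binding. The first 200 bases of a window are shown for Egln3, the most variable gene, for Hif1a, whose window holds 3 core matches, and for Vegfa and Vhl, the genes with a match to the interferon element. Capitals mark matches to either motif, read 5′ to 3′ on the strand of the gene.
Egln3, chr12:54203925-54204124, minus strand: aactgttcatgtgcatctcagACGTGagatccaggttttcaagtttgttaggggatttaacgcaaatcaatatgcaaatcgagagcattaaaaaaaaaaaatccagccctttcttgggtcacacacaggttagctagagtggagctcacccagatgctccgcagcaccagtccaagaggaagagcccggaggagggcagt
Hif1a, chr12:73907617-73907816, plus strand: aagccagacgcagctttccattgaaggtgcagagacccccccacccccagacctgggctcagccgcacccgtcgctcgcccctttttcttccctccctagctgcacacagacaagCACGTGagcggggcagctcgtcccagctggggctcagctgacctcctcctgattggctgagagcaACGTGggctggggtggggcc
Vegfa, chr17:46032428-46032627, minus strand: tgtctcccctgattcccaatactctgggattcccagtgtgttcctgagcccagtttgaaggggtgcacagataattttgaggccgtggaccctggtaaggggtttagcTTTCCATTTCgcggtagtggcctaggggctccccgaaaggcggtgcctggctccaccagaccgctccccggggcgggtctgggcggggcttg
Vhl, chr6:113623744-113623943, plus strand: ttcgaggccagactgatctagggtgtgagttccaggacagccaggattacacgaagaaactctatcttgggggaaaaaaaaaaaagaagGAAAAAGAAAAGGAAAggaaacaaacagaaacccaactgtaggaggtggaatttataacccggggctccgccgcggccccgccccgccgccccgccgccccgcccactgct
In Hif1a the capital run nearest the start of the printed window is matched on both strands, which share its central letters, and counts as 2 of its 3 matches. The other Vegfa window, at a start site inside the gene, held 2 core matches, at 218 and 211 bases upstream. In Vhl the capitals cover 2 overlapping matches, which begin 161 and 155 bases upstream of the start. Both lie within a longer unbroken stretch of A and G, the letters that the motif itself is made of. Both Vegfa and Vhl, which hold the interferon element letters, were at values that overlapped between MI4KO and flox mice, as the other genes were.

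Other genes of the pathway were described by 7 lists with 92 genes in all, of which 85 were abundant enough to test. Of the 85, 4 were lower and 1 was higher in MI4KO mice at an unadjusted p under 0.05, 5.88% against 3.36% of all genes tested, and 0 had an adjusted p under 0.05 by limma. Over all genes, 2.95% were lower and 0.413% higher at that threshold, so the direction of these calls was also that of the table as a whole. The 85 genes had a median log2 fold change of -0.03. The 4 lower genes were Kdr, Nrp2, Dll4 and Stc2 and the 1 higher gene was Vldlr, and the groups did not overlap for Nrp2, Dll4 and Stc2, against 2.07% of all genes.

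**Figure D4:**
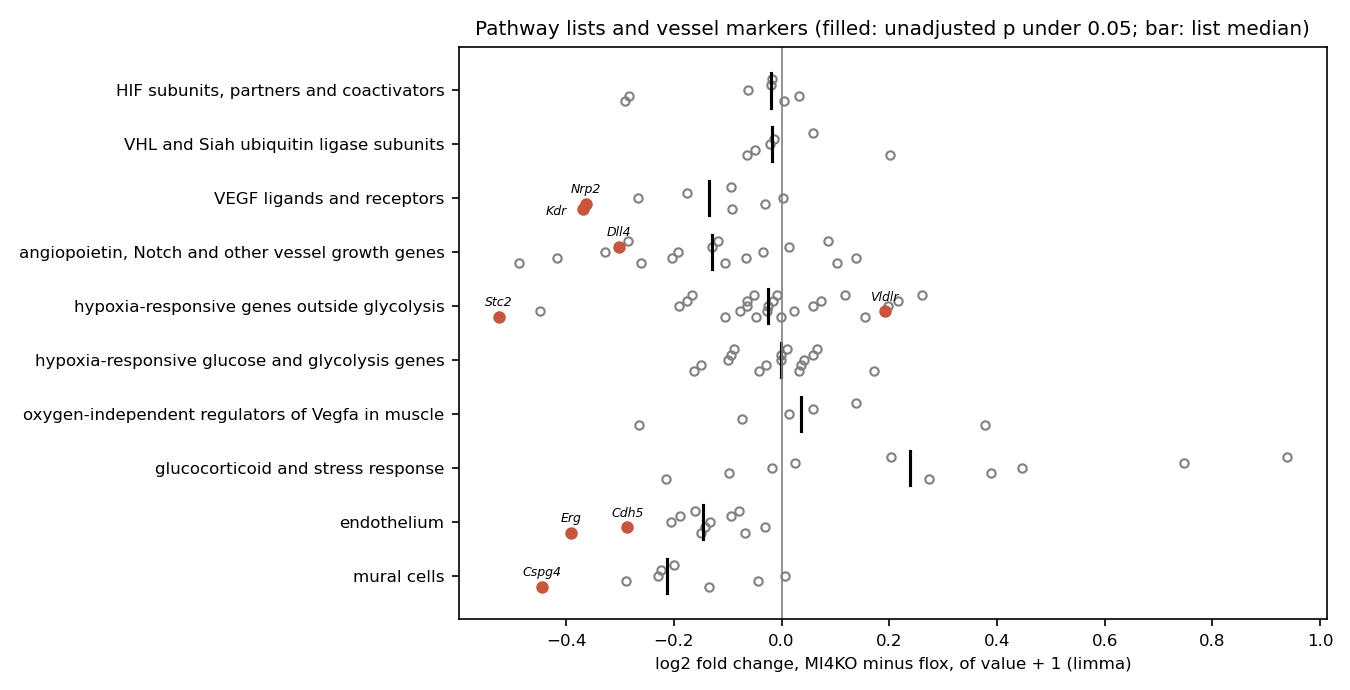
Log2 fold change (horizontal axis, MI4KO minus flox, of value + 1) of every tested gene of the pathway lists, the glucocorticoid list and 2 vessel marker lists, with filled red points for an unadjusted p under 0.05 and bars for list medians. The HIF and VHL lists sit near 0, while the VEGF receptor, vessel growth, endothelial and mural lists have medians between -0.21 and -0.13.

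The lists of proteins that act directly on the HIF subunits held no gene past the threshold. Of 8 partners and coactivators, 7 were tested, 5 had a log2 fold change below 0 and 2 above 0, and 0 had an unadjusted p under 0.05 (median -0.02). They ranged from Cited2, which competes with the HIF alpha subunits for Ep300 and Crebbp, at -0.29 (standard error 0.15, adjusted p = 1.0 by limma), to the coactivator Ep300 at 0.03 (standard error 0.10). All 6 subunits of the VHL and Siah ubiquitin ligases were tested and 0 had an unadjusted p under 0.05 (4 below 0, 2 above 0, median -0.02). They ranged from the ring protein Rbx1, at -0.06 (standard error 0.08), to Siah1a, a ligase that targets prolyl hydroxylases in low oxygen, at 0.20 (standard error 0.12).

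Of 8 other VEGF ligands and receptors, 7 had a log2 fold change below 0 and 1 above 0 (median -0.13), and 2 had an unadjusted p under 0.05. Kdr, the main signaling receptor for Vegfa on endothelium, was at 57.0, 65.6, 67.2 and 63.4 in flox mice and at 38.7, 57.7, 39.8 and 63.4 in MI4KO mice. MI4KO mice 1 and 3 were below all flox mice and mice 2 and 4 were within the flox range. The log2 fold change of Kdr was -0.37 (standard error 0.14, unadjusted p = 0.024, adjusted p = 1.0 by limma), its exact permutation p was 0.143, and 4 of the 8 fits that left out 1 mouse kept its unadjusted p under 0.05 (0.0027 to 0.081 by limma, without MI4KO mouse 4 and without MI4KO mouse 1).

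Nrp2, a coreceptor for VEGF ligands, was at 17.9, 22.1, 19.0 and 19.9 in flox mice and at 13.6, 15.8, 14.7 and 16.3 in MI4KO mice. Every MI4KO mouse was below every flox mouse, with a log2 fold change of -0.36 (standard error 0.09, unadjusted p = 0.0022, adjusted p = 1.0 by limma). Dll4, the Notch ligand of tip cells and arterial endothelium, was at 12.5, 13.3, 14.4 and 14.5 in flox mice and at 9.50, 12.02, 10.1 and 12.1 in MI4KO mice. Its groups were also separate, with a log2 fold change of -0.30 (standard error 0.10, unadjusted p = 0.013, adjusted p = 1.0 by limma). Both kept an unadjusted p under 0.05 in all 8 fits that left out 1 mouse (0.0021 to 0.0091 for Nrp2 and 0.0089 to 0.041 for Dll4 by limma). Flt1, the receptor shared by Vegfa and Vegfb, was named after its values were seen: it was at 56.7, 64.9, 73.5 and 68.8 in flox mice and at 48.8, 62.8, 89.5 and 62.2 in MI4KO mice. Its highest and its lowest mouse were both MI4KO mice, and the log2 fold change was -0.03 (standard error 0.15). The high value was that of MI4KO mouse 3. Without that mouse the log2 fold change of Flt1 was -0.19 (unadjusted p = 0.094, adjusted p = 0.970 by limma). Without both libraries that stood apart it was -0.26 (unadjusted p = 0.027, adjusted p = 0.894 by limma). Vegfc, a ligand for lymphatic growth, stood highest in the list, with a log2 fold change of 0.002 (standard error 0.17).

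Of 18 other vessel growth genes, 17 were tested, 13 had a log2 fold change below 0 and 4 above 0, with a median of -0.13, and Dll4 was the 1 gene with an unadjusted p under 0.05. They ranged from Aplnr, the apelin receptor, at -0.49 (standard error 0.36), to Fgf1, a fibroblast growth factor stored in muscle fibers, at 0.14 (standard error 0.09). Aplnr was at 10.6, 10.1, 8.78 and 9.76 in flox mice and at 8.85, 11.8, 1.79 and 9.005 in MI4KO mice. The low value was that of MI4KO mouse 3, and without that mouse the log2 fold change of Aplnr was -0.00.

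Markers of vessel cells were mostly at lower means in MI4KO mice, and few of them passed the unadjusted test. All 12 endothelial markers were tested and all 12 had a log2 fold change below 0 (median -0.15), as did 7 of 8 markers of mural cells, the pericytes and smooth muscle of vessels (median -0.21), against 56.2% of all genes tested. At an unadjusted p under 0.05 by limma, 2 of the 12 endothelial markers and 1 of the 8 mural markers were lower, 0 of them at an adjusted p under 0.05. Erg, an endothelial transcription factor, and Cdh5, the cadherin of endothelial junctions, were at -0.39 and -0.29 (standard errors 0.12 and 0.12, adjusted p = 1.0 for each by limma), and Cspg4, a pericyte proteoglycan, was at -0.45 (standard error 0.19). Cdh5 was at -0.16 when MI4KO mouse 1 was left out (unadjusted p = 0.083, adjusted p = 1.0 by limma). Cspg4 was at -0.25 when MI4KO mouse 3 was left out (unadjusted p = 0.092, adjusted p = 0.970 by limma). With 1 mouse left out at a time, the unadjusted p of Erg stayed under 0.05 in 8 of 8 limma fits, that of Cdh5 in 4 and that of Cspg4 in 3. The smallest difference among the endothelial markers was that of Sox17, at -0.03 (standard error 0.19). The summed endothelial value was at 487, 539, 572 and 546 in flox mice and at 375, 492, 543 and 506 in MI4KO mice, and the summed mural value ranged from 479 to 534 and from 357 to 537. These sums overlapped between the groups, with MI4KO mouse 1 the lowest in both.

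Set against 100 units of the summed endothelial markers, a ratio chosen after the values were seen, Nrp2 was at 3.67, 4.11, 3.32 and 3.64 in flox mice and at 3.61, 3.22, 2.71 and 3.22 in MI4KO mice, and Dll4 at 2.56, 2.47, 2.52 and 2.66 and at 2.53, 2.44, 1.86 and 2.40. The groups that were separate for Nrp2 and Dll4 on the CPM scale thus overlapped on this one. The overlap lay in MI4KO mouse 1, which had the lowest marker sum, and the other MI4KO mice stayed below all flox mice for both genes. Means in flox and MI4KO mice were 3.68 and 3.19 for Nrp2 and 2.55 and 2.31 for Dll4. Flt1 was at means of 12.3 and 13.6 and Epas1 at 71.8 and 76.7, with groups that overlapped. Kdr was at 11.7, 12.2, 11.7 and 11.6 in flox mice and at 10.3, 11.7, 7.33 and 12.5 in MI4KO mice, with MI4KO mouse 3 the lowest. Without both flox mouse 1 and MI4KO mouse 3, 6 of the 12 endothelial and 4 of the 8 mural markers had an unadjusted p under 0.05 by limma, with medians of -0.28 and -0.26, whereas 5.36% of all genes tested had such a p in that fit and their median was -0.04. In MI4KO mouse 3, 5 of the 12 markers in the sum were the highest of all mice and 2 were the lowest. The ratio to the marker sum is a description, and the part of vessel cell content in the values of Kdr, Nrp2 and Dll4 was not tested.

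**Figure D5:**
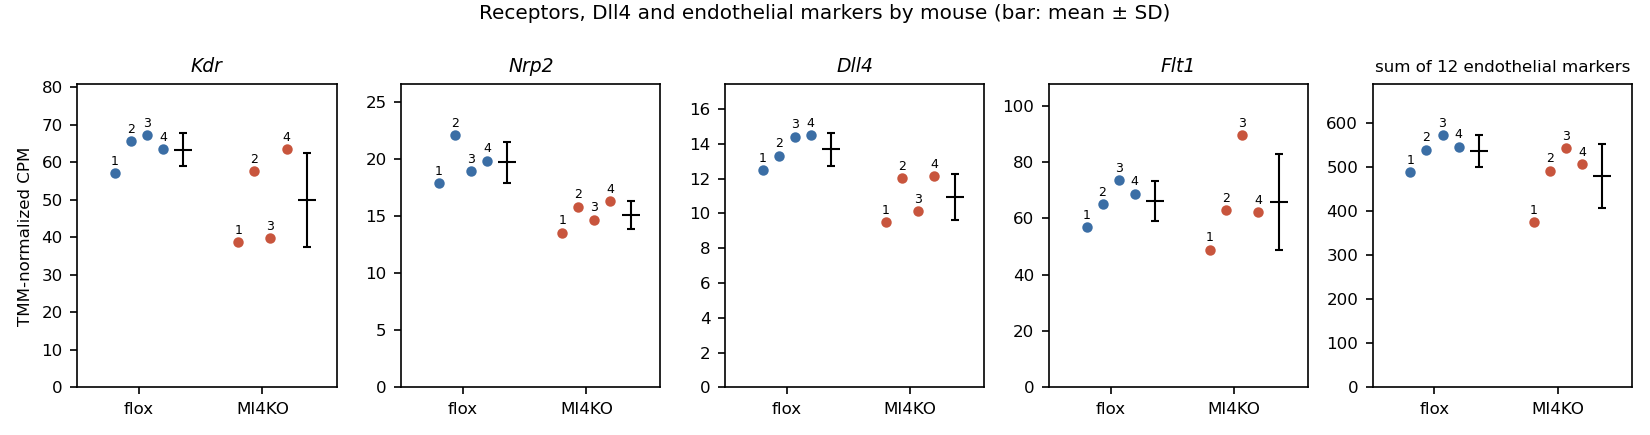
TMM-normalized CPM (vertical axes, each starting at 0) of Kdr, Nrp2, Dll4 and Flt1 and the sum of 12 endothelial markers in the 4 flox mice (blue) and the 4 MI4KO mice (red), with mouse numbers and bars for the mean ± SD. The groups are separate for Nrp2 and Dll4 and overlap for Kdr, Flt1 and the marker sum, which is lowest in MI4KO mouse 1 at 375.

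Genes that respond to hypoxia had calls in both directions. Of 28 such genes outside glycolysis, 25 were tested, 16 had a log2 fold change below 0 and 9 above 0 (median -0.03), and 2 had an unadjusted p under 0.05, 1 in each direction. Stc2, a secreted stanniocalcin, was at 1.93, 2.22, 1.88 and 2.33 in flox mice and at 1.67, 1.49, 0.399 and 1.27 in MI4KO mice. Every MI4KO mouse was below every flox mouse, from as few as 6 reads, with a log2 fold change of -0.53 (standard error 0.19, unadjusted p = 0.018, adjusted p = 1.0 by limma). It was -0.32 without MI4KO mouse 3 and -0.34 without both libraries that stood apart, where the unadjusted p by limma was 0.046 and 0.052. Vldlr, a lipoprotein receptor, was at 213, 196, 193 and 193 in flox mice and at 219, 202, 268 and 224 in MI4KO mice. MI4KO mouse 2 was inside the flox range and the other MI4KO mice above it, with a log2 fold change of 0.19 (standard error 0.09, unadjusted p = 0.047, adjusted p = 1.0 by limma), and 2 of the 8 fits that left out 1 mouse kept it under 0.05 (0.016 to 0.126, the latter without MI4KO mouse 3).

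Ddit4, an inhibitor of mTOR signaling that responds to hypoxia and to glucocorticoids, stood highest in that list, with a log2 fold change of 0.26 (standard error 0.55). It was at 15.03, 8.81, 21.4 and 24.4 in flox mice and at 13.5, 11.3, 90.1 and 10.3 in MI4KO mice, so the difference lay in MI4KO mouse 3, and it was -0.45 without that mouse. The glucocorticoid and stress response list, of which Ddit4 was not a member, had a median of 0.24 over its 10 genes with all mice and -0.17 without MI4KO mouse 3, with 0 genes and 2 genes under an unadjusted p of 0.05. It ranged from Per1, a clock gene, at -0.21 (standard error 0.22) to the metallothionein Mt2, at 0.94 (standard error 0.75). Without MI4KO mouse 3, Mt2 was at -0.04 and Per1 at -0.44 (unadjusted p for Per1 = 0.019, adjusted p = 0.970 by limma). Epo, the classical HIF target of the kidney, had 0 reads in every mouse, which allows a value of up to 0.181 to 0.225, and Car9 and Car12, both membrane carbonic anhydrases, did not reach the level needed for a test, with at most 14 and 4 reads in any mouse. These 3 genes were named after their values were seen.

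Glucose transport and glycolysis genes that HIF can drive had a median near 0. Of 18 such genes, 16 were tested, 9 had a log2 fold change below 0 and 7 above 0 (median -0.00), and 0 had an unadjusted p under 0.05. They ranged from Pfkfb3, which makes an activator of phosphofructokinase, at -0.16 (standard error 0.16), to Slc2a1, the basal glucose transporter, at 0.17 (standard error 0.09). Their summed value was highest in MI4KO mouse 3, at 19163 against 13992 to 16478 in the other mice. Aldoa and Gapdh, at 7785 and 6874 in that mouse, made up most of the sum. There 11 of the 18 genes were highest and 3 of the 16 tested genes were lowest. Without that mouse the list median was -0.06, against -0.04 over all genes tested. Of 6 regulators that act on Vegfa in muscle independently of HIF, 0 had an unadjusted p under 0.05. They ranged from Ppargc1b, at -0.27 (standard error 0.16), to Ppargc1a, a coactivator of oxidative metabolism, at 0.38 (standard error 0.32). Ppargc1a was at 76.7, 28.5, 37.7 and 32.9 in flox mice and at 45.6, 35.1, 101 and 48.8 in MI4KO mice. Its log2 fold change was 0.07 without MI4KO mouse 3 and 0.68 without flox mouse 1 (unadjusted p = 0.029 in the latter, adjusted p = 1.0 by limma). Without both of these mice it was 0.37 (unadjusted p = 0.013, adjusted p = 0.894 by limma). For Ppargc1a, flox mouse 1 and MI4KO mouse 3 were the highest of their groups. Vegfa was highest of its group in flox mouse 1 and lowest of its group in MI4KO mouse 3.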

How the data were processed

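RNA-seq of SOL from 4 MI4KO and 4 flox mice was used, grouped by the titles in the labels and numbered 1 to 4 in ascending order of the mouse numbers. The authors made stranded mRNA libraries, read 50 bases per fragment from 1 end, mapped them to UCSC transcripts with Bowtie2 (2.1.0), estimated expression with RSEM (1.2.15) and scaled it by TMM, and the processing notes of the submitters name mm10. The deposited signal is 1 TMM-normalized CPM value per gene and mouse, and 3 columns of the authors' own comparison (fold change, p-value, FDR) were not used. Whole reads were recovered from the steps of the values (100% whole within 0.01 reads). Totals and floors cover counting error only.

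limma 3.58.1 (R 4.3.3) with a mean-variance trend was run on log2(value + 1), without covariates and with Benjamini-Hochberg adjustment, after genes below 1 in more than 4 mice were removed, which left 11865. Exact permutation tests used scipy 1.17.1, and the alternatives for recovered reads were edgeR 4.0.16 (quasi-likelihood) and DESeq2 1.42.0. The other alternatives were a pseudocount of 0.5, no filter, median-of-ratios scaling, the range of the mouse numbers as a covariate, and each mouse or both doubted libraries left out. Nothing in the sources used here says more about the origin of each library than its mouse number, so p-values measure the spread between these mice. On simulated data with 11736 genes, limma recovered 88 of 98 true 2-fold changes and 96 of 96 true 4-fold changes, with 7 false calls. The simulated counts were drawn independently for each gene, and no simulated library stood apart. This recovery is therefore a check of the fit and not a measure of power in the real mice. Named genes are the 10 genes, list genes with an unadjusted p under 0.05, the highest and lowest fold change of each list, the 3 genes most like Hif1a, Epas1, Egln3 and Vegfa, and Irf4, of which 1 is not reported here. The genes and lists were chosen with earlier results of these data known. Transcript lengths are from GENCODE M21 on GRCm38 and promoters from RefSeq.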

Additional observations from a re-analysis of the deposited data

Results flagged for a closer look

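Among the 20 groups of 4 mice formed by the 10 genes and the 2 genotypes, 1 held a mouse far from the rest by Dixon's gap test at 95%. Egln2 was at 92.2 in flox mouse 3, whereas the other flox mice were at 85.0, 85.0 and 85.7, so that the gap made up 0.899 of the whole range of the group. Chance gives about 1 such group in 20, and the MI4KO mice, at 75.1 to 103, lay on both sides of this value. The high values of Egln3 and Vegfb in MI4KO mouse 3 filled 0.661 and 0.794 of their ranges and did not pass.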

How the results depend on the processing

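Over 15 alternatives, 0 of the 10 genes reached an unadjusted p under 0.05 by limma, edgeR or DESeq2, and the log2 fold changes stayed between -0.22 and 0.23. Their signs were not stable: 34 of the 150 values changed sign, over 8 genes, the largest of them 0.082 in size. With 1 mouse left out at a time, Hif1a ranged from -0.053 to 0.028, Arnt from -0.099 to 0.019, Egln1 from -0.022 to 0.067, Egln2 from -0.050 to 0.10, Egln3 from -0.064 to 0.23, Hif1an from -0.055 to 0.0084, Vegfa from -0.082 to 0.12 and Vegfb from -0.086 to 0.041. With median-of-ratios scaling, Hif1a was at 0.011, Hif1an at 0.0026 and Vegfb at 0.019. With edgeR, Hif1a was at 0.0094 and Vegfb at 0.017, and with DESeq2, Hif1a was at 0.012, Hif1an at 0.0012 and Vegfb at 0.020. With the range of the mouse numbers as a covariate, Vegfb was at 0.029. Without both libraries that stood apart, Hif1a was at 0.038, Egln1 at -0.011, Egln2 at -0.061, Egln3 at -0.057 and Hif1an at 0.012.

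The count of all genes with an unadjusted p under 0.05 was 634 without a filter on low values, where 17968 genes were tested, 248 with DESeq2 and 629 without both libraries that stood apart, against 399. With 1 mouse left out it ran from 258 without flox mouse 3 to 614 without MI4KO mouse 4, and the count with an adjusted p under 0.05 ran from 0 to 1, the 1 gene appearing without MI4KO mouse 2. The count among the 85 other pathway genes was 9 without both libraries and ran from 4 to 14 with 1 mouse left out, against 5. It was 9 without flox mouse 1, 8 without MI4KO mouse 2 and 14 without MI4KO mouse 4. With 1 mouse left out, Nrp2, Dll4, Stc2, Erg and Cyp2e1 kept an unadjusted p under 0.05 in 8 of 8 limma fits. Kdr, Cdh5 and Hba-a1 kept it in 4, Cspg4 in 3 and Vldlr in 2, while Irf4 passed the filter in 4 fits and kept it in 2. With edgeR, Kdr, Cspg4 and Irf4 were no longer under 0.05 (0.074, 0.082 and 0.056), nor were Irf4 with DESeq2 (0.058), Irf4 and Cspg4 with median-of-ratios scaling (0.051 and 0.064), Cspg4 without a filter (0.054), Irf4, Cspg4 and Hba-a1 with the range of the mouse numbers as a covariate (0.071, 0.053 and 0.053), or Stc2 and Vldlr without both libraries (0.052 and 0.067). The causes of these shifts were not tested. The log2 ratio of Vegfa to Egln1 per kilobase was 0.35 with the median transcript length, -1.63 with the longest, -1.94 with the union of exons and, in an alternative chosen after seeing the data, -0.038 with the median of protein-coding transcripts. Depth limited Vhl most among the 10 genes, at 58 to 88 reads per mouse. No paired analysis was possible because the mouse numbers in the labels pair no mice between the groups.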

Other observations

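Of 6 blood markers, 5 had a log2 fold change below 0 and 1 above 0 (median -0.18), and Hba-a1, an alpha globin, had an unadjusted p under 0.05, at -0.28 (standard error 0.11, adjusted p = 1.0 by limma). That p was under 0.05 in 4 of the 8 limma fits that left out 1 mouse, and it was 0.099 without flox mouse 2 and 0.053 with the range of the mouse numbers as a covariate. They ranged from Hbb-bt at -0.32 to Hbb-bs at 1.28, and Hbb-bs was listed at 0 in 4 of the 8 mice, where reads can be divided among near-identical beta globin copies. Of 5 adipocyte markers, 4 were below 0 and 1 above (median -0.20), from Plin1, the lipid droplet coat protein, at -0.54 (standard error 0.38) to the hormone gene Lep at 0.11 (standard error 0.30). Genes of the muscle fiber list ranged from Myh7 at -0.17 (standard error 0.12) to Ckm at 0.00 (standard error 0.13). Mural markers had Abcc9, a potassium channel subunit, as their highest, at 0.01 (standard error 0.09). The liver list had 1 tested gene, Cyp2e1, at 11.5 in flox mouse 1, at 1.80 to 2.43 in flox mice 2 to 4, and at 1.06 to 1.51 in MI4KO mice. Its log2 fold change was -0.96 (unadjusted p = 0.022 by limma), and -0.47 without flox mouse 1 (unadjusted p = 0.012 by limma). Its adjusted p was above 0.05 in both fits. None of the 6 neutrophil markers reached the level for a test, and their sum was 10.6 in MI4KO mouse 3 against 0.510 to 2.99 in the other mice. No hypothesis was tested on these values.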
